A study of Mus musculus with 24 samples.

Results

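Hydrogel-treated wounds of diabetic mice were compared between day 14 and day 1 across all genes. The comparison rests on 6 of the 24 libraries of the series, 3 from hydrogel wounds at day 14 and 3 from hydrogel wounds at day 1, chosen by their titles (TEOA_day14 and TEOA_day1). Of 52976 gene symbols counted, 17592 had enough counts in the 18 wound libraries to be tested. The groups used here were, in the hydrogel arm, wound tissue at day 1, day 7 and day 14, and, in the arm labelled Diabetic control, wound tissue at the same days, with 3 libraries each. All were wound tissue of diabetic mice, and the hydrogel arm differed by treatment with the Fmoc-KYF-AgNCs-3S1C-Hyd2 hydrogel. Per the title of the series this is a peptide gel with silver nanoclusters and a hydrogenase that tolerates oxygen, and it is meant to give hydrogen under light. The sources used here give no strain, age, sex, diabetes model, light dose or wound size. They do not say whether replicates came from separate animals or whether tissue was pooled, so p-values measure only the spread between libraries, which may be technical. Titles name the treated arm TEOA and the labels name the gel, and the meaning of TEOA is not given in the sources used here.

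A skin wound first clots and draws in neutrophils and then monocytes, which clear debris under the guidance of chemokines and acute-phase proteins. Keratinocytes and fibroblasts then divide and move to close the gap, vessels grow in, and matrix is laid down. Hair follicles near a wound can pass through their own cycle, and in the growth phase (anagen) they divide fast, make hair keratins and load the shaft with melanin.

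Total counts were 19963708, 24731851 and 22155278 in the day 14 libraries and 12428907, 26638468 and 27062593 in the day 1 libraries. Levels are given as CPM, that is, counts relative to the TMM-scaled size of the library, in the order of replicates 1, 2 and 3, and they are not corrected for gene length, so they compare libraries and not genes. Keratin genes of the basal epidermis were high in every library, with Krt14 at 2162, 1817 and 1590.3 CPM at day 14, against 1068, 1419 and 1032 CPM at day 1, so the tissue label was matched by its markers. The day 14 libraries lay close together, with a biological coefficient of variation of 15%, against 44.1% among the day 1 libraries. This is a single value that edgeR fits over all genes tested for the spread beyond counting noise. Replicate 1 of day 1 stood apart from the other day 1 libraries (correlation of log2 CPM 0.931 and 0.944, against 0.974 between the other pair). Skeletal muscle RNA differed with the day, since 28 muscle genes took 4.78%, 3.58% and 2.7% of all counts at day 14, against 13.8%, 19% and 20.5% at day 1. The part of this in other differences was not tested. In such bulk tissue, fewer cells of a type and less RNA per cell cannot be told apart.

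In the edgeR quasi-likelihood test, 8415 of the 17592 genes (47.8%) had an adjusted p below 0.05 (Benjamini-Hochberg), the threshold for passing. Of these, 3831 genes (21.8% of those tested) were higher and 4584 (26.1%) were lower at day 14. At least 4-fold changes were found in 1683 of the genes that rose and 1645 of those that fell. The median log2 fold change over all genes tested was -0.07, and 59.3% of all genes tested had day 14 and day 1 libraries that did not overlap. Fitted to the 6 libraries alone the same test called 8168 genes, of which 7410 were among the 8415 with the same sign. Without replicate 1 of day 1 the test on the wound libraries called 8742 genes, of which 7441 were among the 8415. Fold changes below are log2 values of day 14 over day 1 with their standard errors, and "rose" and "fell" are used of genes past the threshold. Counts of list members are to be read against the 21.8% higher and 26.1% lower of all genes.

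**Figure D1:**
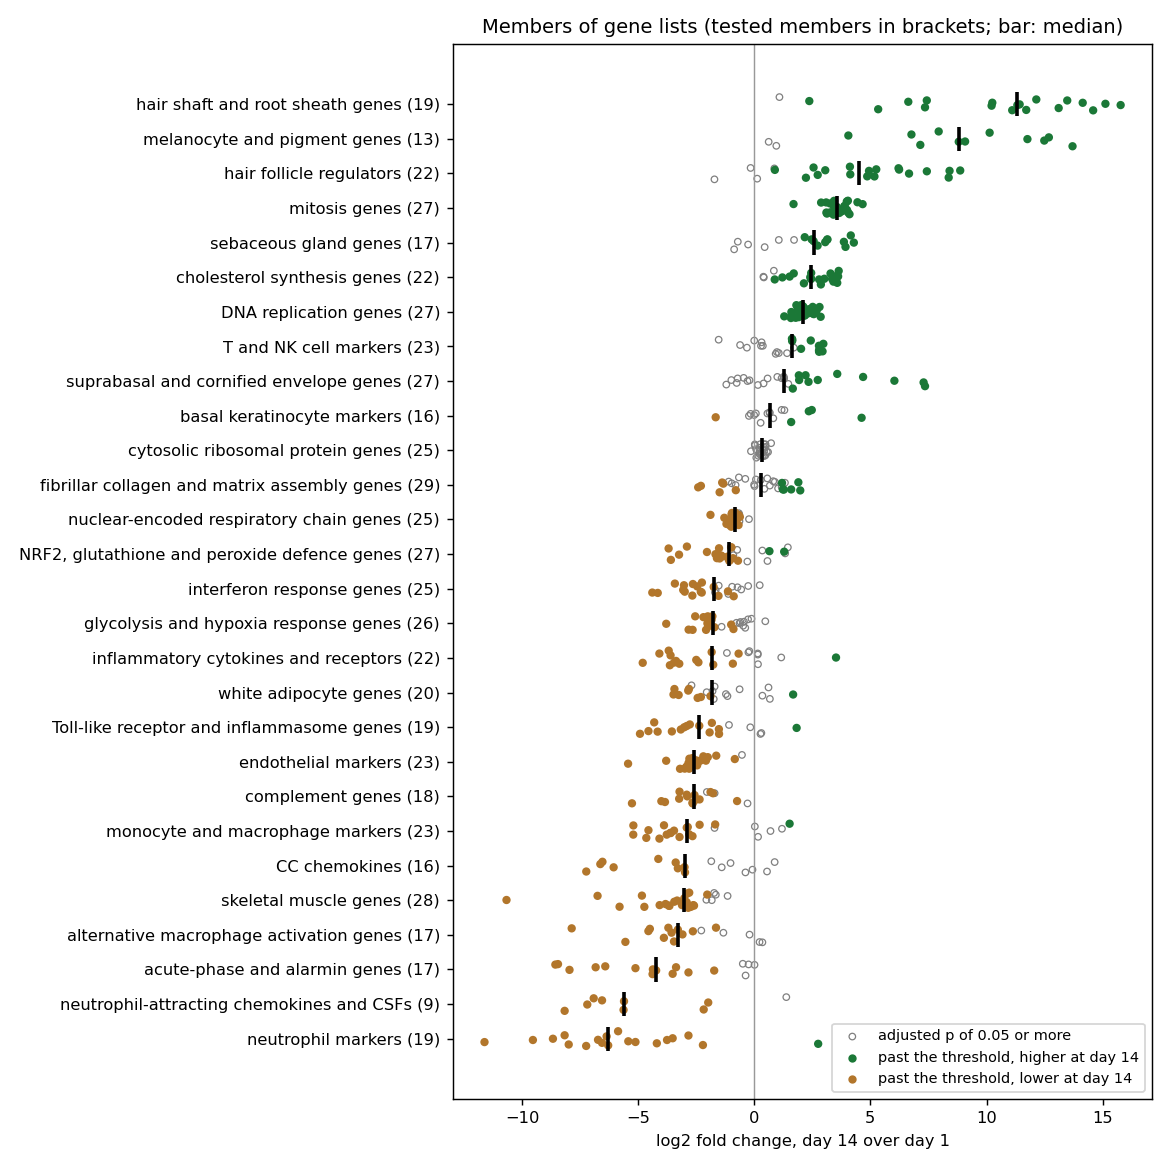
Log2 fold change of day 14 over day 1 in hydrogel wounds (horizontal axis) for each tested member of 28 gene lists, ordered by their median (black bar). Filled points passed the threshold, green where higher and brown where lower at day 14. All 27 mitosis genes lie to the right and 18 of 19 neutrophil genes to the left. Fitted values of genes with no count in a group depend on the prior count.

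Structural genes of the hair had the largest fitted median rise of the 54 gene lists. Of 19 tested genes of the hair shaft and inner root sheath, 18 rose and none fell, with a fitted median of 11.33. The median was 8.62 with the 6 genes that had no count at day 1 set to their lower bound, against 8.61 for pigment genes treated alike. These 6 genes passed the filter on low counts only through other groups of wounds, so their being tested depended on a higher level there. The 12 largest increases were 7 keratins of the hair shaft and sheath, Krtap8-1, Tgm6 and the pigment genes Tyr, Slc45a2 and Mc1r. Krt25, a type I keratin of the inner root sheath (chromosome 11, 99315516 to 99322951, GRCm38), stood at 824, 1175 and 1436 CPM at day 14, against 0, 0.0526 and 0.0518 CPM at day 1. Krt71, a type II keratin of the same sheath (chromosome 15, 101733949 to 101743109), was at 588, 901 and 1110.1 CPM at day 14, against 0.172, 0 and 0 CPM at day 1. Both genes had 2 counts in all over the day 1 libraries, and replicate 1 was the lowest of the day 14 libraries for both. Krt25 had 100138 counts over the day 14 libraries and 2 over the day 1 libraries, a ratio of 28970 (95% counting interval 8021 to 239200) after scaling (adjusted p = 0.000126).

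The promoters of these keratins are shown because the genes moved together, as RefSeq places them (GRCm38.p6, 250 bases before to 50 after the start, 5′ to 3′), with matches to the TATA box letters TATAAA on either strand in capitals. The Krt25 window is chr11:99322902-99323201, minus strand, and the Krt71 window is chr15:101743048-101743347, minus strand.
Krt25: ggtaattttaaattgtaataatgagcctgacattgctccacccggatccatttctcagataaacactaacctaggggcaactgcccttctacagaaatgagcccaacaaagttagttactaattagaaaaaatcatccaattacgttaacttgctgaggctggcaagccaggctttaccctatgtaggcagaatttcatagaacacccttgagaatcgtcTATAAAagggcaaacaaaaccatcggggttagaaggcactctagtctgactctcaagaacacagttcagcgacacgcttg
Krt71: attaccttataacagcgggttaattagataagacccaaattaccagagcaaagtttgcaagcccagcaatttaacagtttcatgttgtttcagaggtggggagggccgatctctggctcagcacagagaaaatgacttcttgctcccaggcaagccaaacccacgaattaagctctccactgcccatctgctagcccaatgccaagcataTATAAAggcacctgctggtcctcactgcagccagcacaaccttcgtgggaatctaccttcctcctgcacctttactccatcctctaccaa
TATAAA was found in 13 of 16 windows of the list (81.2%), against 8.37% of the 12480 windows of tested genes. It was also found in 45.5% of the windows of the neutrophil chemokine list, 34.8% of those of neutrophil markers and 28.6% of those of the acute-phase list, lists that fell. The letters CTTTGA, the core that LEF and TCF factors of the Wnt pathway bind, were found in 7 of the 16 windows and in 12.7% of the windows of tested genes, and in neither window above. A match is a description of the letters and no evidence of binding.

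Other sheath keratins showed the same step. Krt73, a type II sheath keratin, was at 339, 386 and 415 CPM at day 14, against 0, 0 and 0 CPM at day 1, at least 6361-fold higher when the day 1 group is given a floor of 3 counts (adjusted p = 0.000505). Krt27, a type I sheath keratin, was at 208, 238 and 259.9 CPM at day 14, against 0, 0 and 0.0518 CPM at day 1 (adjusted p = 0.000205). Day 14 libraries differed little among themselves beside the gap to day 1. Tgm6, a transglutaminase, a cross-linking enzyme family, stood at 10.1, 38.2 and 58.3 CPM at day 14, against 0, 0 and 0 CPM at day 1, at least 612-fold higher against the same floor, but it missed the threshold when low genes were not filtered out.

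Keratins of the shaft itself were uneven among the day 14 libraries. Krt35, a hair cortex and cuticle keratin, was at 561, 991 and 1295 CPM at day 14, against 0, 0 and 0.0518 CPM at day 1. Krt31, a cortex keratin, stood at 12.9, 142 and 229 CPM at day 14, against 0, 0 and 0.103 CPM at day 1, and Krt33a at 5.6, 84.4 and 141 CPM at day 14, against 0, 0 and 0 CPM at day 1. For these 3 genes replicate 1 was the lowest of the day 14 libraries and still above every day 1 library. Krt87, a type II hair keratin, had 15.3, 115 and 189 CPM at day 14, against 0, 0 and 0 CPM at day 1, and Krtap8-1, which encodes a keratin-associated protein that embeds hair filaments, had 1.86, 46.1 and 76.7 CPM at day 14, against 0, 0 and 0 CPM at day 1. Krt31, Krt33a and Krtap8-1 missed the threshold under limma-voom with quality weights. The stricter filter (1 CPM in 6 libraries) removed these 3 genes and left 9 genes of the list, of which 8 rose. Krt75, a keratin of the companion layer, was the tested member that did not pass (1.08 ± 1.21, adjusted p = 0.479).

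**Figure D2:**
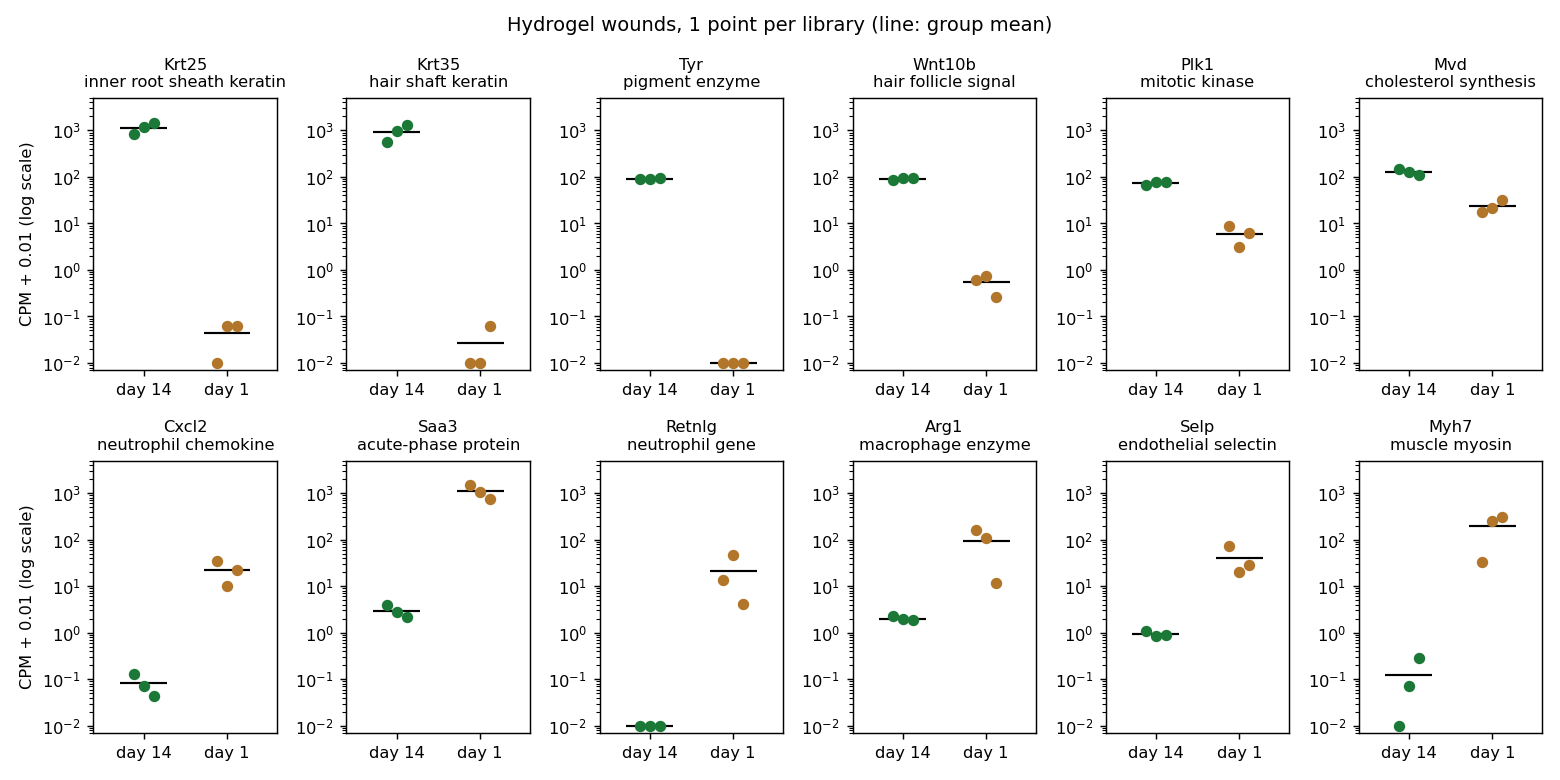
Level of 12 genes in each hydrogel wound library at day 14 (left, green) and day 1 (right, brown), as CPM plus 0.01 on a log axis, with the group mean as a line. In each of the 12 panels the 3 day 14 libraries are separated from the 3 day 1 libraries, above them in the upper row and below them in the lower row.

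Signals that build and drive follicles rose with the structural genes, in 18 of 22 tested members with a median of 4.50 and none lower. Under some other settings 1 member was lower, among them DESeq2, limma-voom, the 6 libraries alone and the 9 hydrogel libraries. Among ligands, Wnt10b, a Wnt ligand that promotes follicle growth, was at 86.2, 93.5 and 95.5 CPM at day 14, against 0.601, 0.736 and 0.259 CPM at day 1 (7.43 ± 0.62, adjusted p = 4.21e-06). Wnt5a, a ligand of the noncanonical branch, was at 118, 125 and 132 CPM at day 14, against 2.41, 3.68 and 6.68 CPM at day 1 (4.86 ± 0.70, adjusted p = 0.000154). Bmp4, a secreted growth factor of the dermal papilla, was at 51.7, 49.9 and 48.9 CPM at day 14, against 7.82, 6.68 and 8.18 CPM at day 1 (2.73 ± 0.38, adjusted p = 0.000137). For none of these ligands did day 14 and day 1 libraries overlap.

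The receptor and target side moved the same way. Ptch1, the hedgehog receptor and itself a hedgehog target, was at 176, 145 and 127 CPM at day 14, against 17.5, 19.1 and 17.3 CPM at day 1 (3.06 ± 0.41, adjusted p = 0.000103). Outside the naming rule and chosen after its values were seen, the ligand gene Shh was at 89.2, 73.4 and 71 CPM at day 14, against 12.7, 0.842 and 0.362 CPM at day 1 (4.12 ± 1.46, adjusted p = 0.0303), with 1 day 1 library, replicate 1, far above the other day 1 libraries. Lef1, the Wnt effector that switches on hair keratin genes, was chosen in the same way and was at 86.8, 133 and 172 CPM at day 14, against 0.773, 0.21 and 0.259 CPM at day 1 (8.41 ± 1.30, adjusted p = 0.000232). The members that did not pass were Sox9, Cd34, Krt15 and Fgf5, which include the bulge stem cell markers Cd34 (-1.71 ± 0.69, adjusted p = 0.0519) and Krt15 (-0.16 ± 0.70, adjusted p = 0.871). Fgf5, the ligand that ends the growth phase, differed by 0.13 on the log2 scale (adjusted p = 0.92).

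Pigment genes rose in 11 of 13 tested members, with a fitted median of 8.80, or 8.61 with the 4 genes that had no count at day 1 set to their lower bound. Tyr, tyrosinase, the rate-limiting enzyme of melanin synthesis (chromosome 7, 87424771 to 87493512), stood at 88.2, 89.5 and 93.5 CPM at day 14, against 0, 0 and 0 CPM at day 1, at least 1506-fold higher. Mc1r, the melanocortin receptor that sets the melanin type, was at 29.9, 38.8 and 48 CPM at day 14, against 0, 0 and 0 CPM at day 1, at least 654-fold higher. Slc45a2, a melanosome transporter, was at 30.4, 45.9 and 57.6 CPM at day 14, against 0, 0 and 0 CPM at day 1, at least 754-fold higher. None of these 3 genes had a count in any day 1 library, and replicate 1 was the lowest of the day 14 libraries for each. Mlana, a melanosome protein, was at 65.2, 106 and 129.9 CPM at day 14, against 0.258, 0.0526 and 0 CPM at day 1 (10.13 ± 1.05, adjusted p = 1.77e-05), and Pmel, which forms the fibrils that carry melanin, was at 412, 332 and 288 CPM at day 14, against 0.773, 0.684 and 0.466 CPM at day 1 (9.08 ± 1.11, adjusted p = 5.64e-05). Mitf, the master regulator of melanocytes, did not pass (0.62 ± 0.26, adjusted p = 0.0619), with 34.5, 33 and 33.3 CPM at day 14, against 18.6, 29.2 and 17.7 CPM at day 1. Sox10, shared with Schwann cells, did not pass either (0.95 ± 0.56, adjusted p = 0.175).

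Both cell cycle lists rose in full. All 27 mitosis genes rose with a median of 3.56, and all 27 DNA replication genes rose with a median of 2.11. Plk1, a kinase that drives mitotic entry and exit, was at 68.4, 76.5 and 79.4 CPM at day 14, against 8.68, 3.05 and 6.11 CPM at day 1 (3.66 ± 0.49, adjusted p = 0.000108). Prc1, which bundles the central spindle, was at 33.3, 38.6 and 41.9 CPM at day 14, against 4.81, 2.74 and 5.49 CPM at day 1 (3.13 ± 0.41, adjusted p = 9.64e-05), and Ccna2, cyclin A2, was at 87.1, 99.6 and 112 CPM at day 14, against 13, 4 and 8.54 CPM at day 1 (3.56 ± 0.49, adjusted p = 0.000115). For each of these the lowest day 14 library was several times the highest day 1 library, and replicate 2 of day 1 was the lowest of all. Among replication genes, Mcm7, a subunit of the replicative helicase, was at 164, 169.9 and 179 CPM at day 14, against 44.2, 37.1 and 33.3 CPM at day 1 (2.16 ± 0.28, adjusted p = 7.12e-05), and Cdc45, which joins that helicase, was at 29.1, 27.5 and 27.9 CPM at day 14, against 6.36, 5.21 and 7.04 CPM at day 1 (2.18 ± 0.30, adjusted p = 0.000111).

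Genes of lipid synthesis rose as well. Of 22 cholesterol synthesis genes, 19 rose and none fell (median 2.45). Mvd, which makes isopentenyl diphosphate, was at 151, 130.2 and 108 CPM at day 14, against 17.5, 21.4 and 32.2 CPM at day 1 (2.45 ± 0.43, adjusted p = 0.000549), and Dhcr7, which makes cholesterol in the last step of its pathway, was at 62.9, 67.9 and 70.8 CPM at day 14, against 14.6, 15.7 and 15.5 CPM at day 1 (2.14 ± 0.35, adjusted p = 0.00031). Srebf2, the transcription factor that switches the pathway on, was at 193, 199.7 and 219 CPM at day 14, against 51.6, 68.4 and 68.3 CPM at day 1 (1.70 ± 0.31, adjusted p = 0.000618). All 3 were higher in every day 14 library than in any day 1 library.

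Sebaceous gland genes rose in 11 of 17 tested members with a median of 2.55, and none fell. Fads2, a fatty acid desaturase, was at 47.5, 65.5 and 72.1 CPM at day 14, against 13.1, 8 and 10.5 CPM at day 1 (2.55 ± 0.28, adjusted p = 2.85e-05). Awat2, a wax ester synthase, was at 20.3, 20 and 17 CPM at day 14, against 1.03, 1.42 and 3.88 CPM at day 1 (3.15 ± 0.89, adjusted p = 0.00947), and Soat1, which esterifies cholesterol, was at 239.9, 209 and 202 CPM at day 14, against 19.8, 31.5 and 65.9 CPM at day 1 (2.47 ± 0.58, adjusted p = 0.00318). Mean log2 CPM over the list was 6.87, 6.71 and 6.51 at day 14, against uneven levels of 3.21, 3.90 and 5.33 at day 1. The count was 6 without replicate 1 of day 1, without replicate 2 of day 1, without the day 7 libraries, with no filter and with a 2-fold minimum alike. In the fit without replicate 1 of day 1, 1 member fell. Under limma-voom, and on the compared libraries without that replicate, 2 fell.

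In the epidermis, 11 of 27 genes of the suprabasal layers and cornified envelope rose and none fell (median 1.28). Dsc1, a desmosomal cadherin of the upper layers, was at 18, 16.8 and 18 CPM at day 14, against 1.55, 2.42 and 0.466 CPM at day 1 (3.57 ± 0.48, adjusted p = 0.000101). Tgm3, a transglutaminase of epidermis and hair, was at 12.8, 32.9 and 49.9 CPM at day 14, against 4.04, 6.15 and 4.14 CPM at day 1 (2.73 ± 0.44, adjusted p = 0.000287). Tchh, trichohyalin, which the hair sheath also makes, was at 153, 248 and 332 CPM at day 14, against 2.41, 1.21 and 0.983 CPM at day 1 (7.35 ± 1.22, adjusted p = 0.000365). Mean log2 CPM over the list was 4.48, 4.47 and 4.38 at day 14, against 1.42, 3.85 and 1.68 at day 1, where replicate 2 stood above the others. Without replicate 2 of day 1, 20 of the 27 members rose and the median was 2.60, and limma-voom called 21.

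Basal keratinocyte markers mostly did not pass, with 4 of 16 higher and 1 lower (median 0.66). The number higher was 2 with a 2-fold minimum or without replicate 3 of day 1, 9 on the 9 hydrogel libraries, 11 on the compared libraries without replicate 1 of day 1 and 12 under limma-voom. Cdh3, P-cadherin, which marks hair matrix and basal cells, was at 131, 134 and 142 CPM at day 14, against 2.92, 7.1 and 6.37 CPM at day 1 (4.62 ± 0.82, adjusted p = 0.000565). Trp63, the transcription factor of stratified epithelia, was at 214, 234 and 261 CPM at day 14, against 62.6, 36.4 and 40.6 CPM at day 1 (2.35 ± 0.65, adjusted p = 0.00838). Dst, a hemidesmosome linker, was the member that fell (-1.66 ± 0.44, adjusted p = 0.00685), and it missed the threshold with a 2-fold minimum and with a replicate block on the 6 libraries.

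The 12 largest falls were those of the muscle genes Igfn1, Myh7, Myh6 and Myl3 and of 8 genes of neutrophils, their chemokines and the acute phase. In the list of neutrophil-attracting chemokines and growth factors, 8 of 9 tested genes fell and none rose (median -5.63). This list also holds the receptor gene Cxcr2 and the platelet chemokine gene Pf4. Cxcl2, a chemokine that binds Cxcr2 on neutrophils (chromosome 5, 90903871 to 90905938), was at 0.118, 0.0624 and 0.0345 CPM at day 14, against 34.3, 10.1 and 21.8 CPM at day 1 (-8.16 ± 0.89, adjusted p = 3.02e-05). Cxcl3 of the same family was at 0.237, 0.0312 and 0.0345 CPM at day 14, against 22, 10.8 and 4.19 CPM at day 1 (-6.91 ± 1.24, adjusted p = 0.000569), and Pf4, the platelet chemokine Cxcl4, was at 2.25, 2.59 and 1.86 CPM at day 14, against 129, 158 and 45.2 CPM at day 1 (-5.63 ± 0.92, adjusted p = 0.000332). The receptor gene Cxcr2 was at 0.276, 0.281 and 0.173 CPM at day 14, against 8.08, 55.9 and 6.37 CPM at day 1 (-6.55 ± 0.82, adjusted p = 6.33e-05). Day 14 levels lay under those of every day 1 library for all 4 genes. Csf3, the growth factor that mobilises neutrophils, was under the filter on low counts, with 0, 0 and 0 CPM at day 14, against 1.55, 0.579 and 0.776 CPM at day 1. The other 4 members under the filter were low at both days, and Csf2, Il17a and Il17f had counts in all 3 day 14 libraries, against at most 1 day 1 library. With no filter 9 of the 14 members fell, 1 rose and the median was -3.78, and on the 9 hydrogel libraries 1 of 9 rose.

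The promoters of Cxcl2 and Saa3 are shown as examples of the inflammatory genes that fell, from the same RefSeq windows, with matches on either strand to GGNNTTTCC, letters that NF-kappaB can bind, and to TTNNGCAA, letters that C/EBP factors can bind, in capitals. The Cxcl2 window is chr5:90903649-90903948, plus strand, and the Saa3 window is chr7:46715627-46715926, minus strand.
Cxcl2: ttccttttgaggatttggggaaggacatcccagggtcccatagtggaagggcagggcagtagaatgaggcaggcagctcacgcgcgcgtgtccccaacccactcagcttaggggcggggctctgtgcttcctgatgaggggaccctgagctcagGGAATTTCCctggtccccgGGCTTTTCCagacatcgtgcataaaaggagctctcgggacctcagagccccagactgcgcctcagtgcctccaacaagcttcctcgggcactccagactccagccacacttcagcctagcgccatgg
Saa3: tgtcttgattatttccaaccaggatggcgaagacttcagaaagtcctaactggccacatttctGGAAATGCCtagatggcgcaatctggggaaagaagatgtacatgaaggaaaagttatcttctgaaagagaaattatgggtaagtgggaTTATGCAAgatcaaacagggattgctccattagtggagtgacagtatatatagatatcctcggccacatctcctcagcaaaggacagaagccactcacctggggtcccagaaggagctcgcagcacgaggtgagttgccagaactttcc
The Cxcl2 window held GGNNTTTCC in a pair of places and the Saa3 window held each motif once. GGNNTTTCC was found in 5 of 11 windows of the neutrophil chemokine list (45.5%), against 6.06% of windows of tested genes. It was found in 14.3% of the windows of the acute-phase list and in 4.35% of those of neutrophil markers, a list that also fell. TTNNGCAA was found in 7 of 14 windows of the acute-phase list (50%), against 8.85% of windows of tested genes. It was found in 34.8% of the windows of neutrophil markers and in 18.2% of those of the neutrophil chemokine list.

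Acute-phase and alarmin genes fell in 13 of 17 tested members and rose in none (median -4.22). Saa3, the serum amyloid A made in injured tissue (chromosome 7, 46711998 to 46715700), was at 3.91, 2.71 and 2.18 CPM at day 14, against 1514, 1084 and 735 CPM at day 1 (-8.56 ± 1.40, adjusted p = 0.00033). Saa1 was at 0.355, 0.312 and 0.173 CPM at day 14, against 51.9, 93.7 and 66.8 CPM at day 1 (-7.96 ± 0.95, adjusted p = 5.09e-05), and Saa2, its near-identical neighbour, was at 0.158, 0.0936 and 0.0345 CPM at day 14, against 38.4, 28.2 and 38.2 CPM at day 1 (-8.45 ± 1.12, adjusted p = 9.86e-05). Read pairs that map to both Saa1 and Saa2 are not counted by the counter's default, so the split between these 2 genes is uncertain. Lcn2, lipocalin 2, which binds bacterial siderophores, was at 46.5, 33.5 and 22.9 CPM at day 14, against 1459, 867 and 1241 CPM at day 1 (-5.12 ± 0.38, adjusted p = 2.24e-06). Ptx3, a soluble pattern receptor, was at 2.72, 2.18 and 1.35 CPM at day 14, against 33.3, 54.7 and 42.3 CPM at day 1 (-4.38 ± 0.53, adjusted p = 5.25e-05). Each of the 5 genes was lower in all day 14 libraries.

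Neutrophil markers fell in 18 of 19 tested members, with a median of -6.29. Cxcr2 and Lcn2, given above with other lists, are also counted among these members. Retnlg, a resistin-like gene of mature neutrophils, was at 0, 0 and 0 CPM at day 14, against 13.8, 45.8 and 4.14 CPM at day 1, at least 640-fold lower against a floor of 3 counts over the day 14 group (adjusted p = 0.000217). Stfa2l1, a stefin of neutrophils, was at 0, 0.0312 and 0 CPM at day 14, against 21.9, 14.2 and 4.55 CPM at day 1 (adjusted p = 6.43e-05), a ratio of day 1 to day 14 of 1058 (95% counting interval 189 to 41840). Mmp8, neutrophil collagenase, was at 0.0395, 0 and 0.104 CPM at day 14, against 8.59, 53 and 3.52 CPM at day 1 (-8.67 ± 1.43, adjusted p = 0.000342). Day 1 levels of these genes differed several-fold among libraries, and replicate 3 was the lowest for all 3 genes. Csf3r, the receptor for the growth factor above, was at 0.671, 0.686 and 0.414 CPM at day 14, against 35.1, 93.7 and 18 CPM at day 1 (-6.36 ± 0.79, adjusted p = 6.33e-05). Cstdc4, another stefin-type gene, was at 0.0789, 0 and 0 CPM at day 14, against 20.6, 12.7 and 3.98 CPM at day 1 (adjusted p = 0.000263), a ratio of day 1 to day 14 of 483 (95% counting interval 133 to 3998). Mpo, myeloperoxidase, was the member that rose, at 7.85, 5.99 and 4.38 CPM at day 14, against 0.258, 0.631 and 1.71 CPM at day 1 (2.75 ± 0.81, adjusted p = 0.012). Ly6g, the defining surface marker, was under the filter, at 0, 0 and 0 CPM at day 14, against 0.516, 0.473 and 0.103 CPM at day 1.

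Among cytokines, 14 of 22 tested genes fell and 1 rose, with a median of -1.80. Il1b, the interleukin 1 beta gene, was at 1.07, 1.22 and 1.55 CPM at day 14, against 75.7, 19.5 and 12.8 CPM at day 1 (-4.80 ± 0.76, adjusted p = 0.000261), and Il33, an alarmin cytokine, was at 6.91, 5.46 and 3.8 CPM at day 14, against 160.4, 88.6 and 25.7 CPM at day 1 (-4.09 ± 0.65, adjusted p = 0.000267). Osmr, the receptor for oncostatin M, was at 24.9, 25.5 and 25.4 CPM at day 14, against 89.1, 85.7 and 83.3 CPM at day 1 (-1.77 ± 0.21, adjusted p = 4.88e-05). The member that rose was Il20, an epidermal cytokine of the interleukin 10 family (3.52 ± 0.97, adjusted p = 0.00843). Tnf did not pass (-0.21 ± 0.62, adjusted p = 0.802), with 2.61, 3.77 and 2.87 CPM at day 14, against 4.64, 1.1 and 5.02 CPM at day 1.

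Monocyte and macrophage markers fell in 17 of 23 tested members (median -2.91). Cd68, a lysosomal protein of macrophages, was at 7.34, 5.68 and 5.46 CPM at day 14, against 92.5, 135 and 85.9 CPM at day 1 (-4.08 ± 0.47, adjusted p = 3.94e-05). Cd14, the lipopolysaccharide co-receptor, was at 2.92, 2.4 and 2.83 CPM at day 14, against 98.9, 57 and 36.4 CPM at day 1 (-4.56 ± 0.57, adjusted p = 6.74e-05), and Fcgr1, the high-affinity IgG receptor, was at 0.868, 0.749 and 0.587 CPM at day 14, against 28.2, 38.9 and 15.1 CPM at day 1 (-5.21 ± 0.71, adjusted p = 0.000109). Gpnmb, also a melanosome protein, was the member that rose (1.52 ± 0.53, adjusted p = 0.0285), and Mertk, Cx3cr1, Ly6c2 and Lgals3 were among those that did not pass. Of the CC chemokines, most of which attract monocytes or lymphocytes, 9 of 16 fell and none rose. Ccl4, which attracts monocytes and T cells, was at 0.197, 0.0624 and 0.138 CPM at day 14, against 41.2, 4.52 and 16 CPM at day 1 (-7.23 ± 1.17, adjusted p = 0.000301), and Ccl3 was at 0.118, 0.156 and 0.173 CPM at day 14, against 29.5, 5.94 and 11.2 CPM at day 1 (-6.63 ± 1.11, adjusted p = 0.00038).

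The genes of alternative macrophage activation fell alongside those of innate sensing. Of 17 tested genes of alternative activation, 12 fell and none rose (median -3.29). Arg1, arginase 1, was at 2.25, 1.93 and 1.83 CPM at day 14, against 161, 109.5 and 11.5 CPM at day 1 (-5.55 ± 0.70, adjusted p = 6.63e-05), with replicate 3 of day 1 well under the other day 1 libraries and still above every day 14 library. Lyve1, shared by lymphatic vessels and tissue macrophages, was at 0.158, 0.187 and 0.207 CPM at day 14, against 3.52, 4.58 and 5.38 CPM at day 1 (-4.56 ± 0.52, adjusted p = 3.99e-05). Toll-like receptor and inflammasome genes fell in 14 of 19 tested members, and 1 rose, with 9 lower under a 2-fold minimum. Nlrp3, a sensor that starts inflammasome assembly, was at 0.0789, 0.25 and 0.104 CPM at day 14, against 6.96, 4.58 and 2.54 CPM at day 1 (-4.92 ± 0.79, adjusted p = 0.000297), and Tlr4, the lipopolysaccharide receptor, was at 2.8, 2.34 and 1.93 CPM at day 14, against 14.2, 24.4 and 18.8 CPM at day 1 (-3.02 ± 0.51, adjusted p = 0.000386). Aim2, a DNA sensor, was the member that rose (1.82 ± 0.58, adjusted p = 0.0173).

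Complement genes fell in 15 of 18 tested members with a median of -2.61. C3, the central component, was at 39.2, 33.4 and 30.5 CPM at day 14, against 468, 491 and 693 CPM at day 1 (-4.00 ± 0.95, adjusted p = 0.00342), and C5ar1, the receptor for C5a, was at 0.513, 0.749 and 0.414 CPM at day 14, against 14.3, 39.6 and 11.6 CPM at day 1 (-5.27 ± 0.84, adjusted p = 0.000277). Interferon response genes fell in 16 of 25 members, with a median of -1.75. Oasl1 was at 0.75, 0.873 and 0.863 CPM at day 14, against 26.1, 12 and 6.78 CPM at day 1 (-4.16 ± 0.74, adjusted p = 0.000569), and Oas3, which makes the activator of RNase L, was at 0.71, 0.343 and 0.518 CPM at day 14, against 17.9, 12.3 and 3.11 CPM at day 1 (-4.39 ± 0.81, adjusted p = 0.000726). Mean log2 CPM of the interferon list was 1.66, 1.43 and 1.26 at day 14, against 4.14, 2.63 and 2.63 at day 1, where replicate 1 was the highest. The count of interferon genes that fell was 9 without replicate 1 of day 1 and 10 without replicate 3 of day 14, and 9 without the day 7 libraries or with a 2-fold minimum.

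T and NK cell markers ran against this trend. They rose in 11 of 23 tested members and fell in none (median 1.62), at low levels throughout. Lck, the kinase of T cell receptor signalling, was at 8.33, 9.48 and 10.2 CPM at day 14, against 2.23, 1.1 and 0.776 CPM at day 1 (2.79 ± 0.46, adjusted p = 0.000366). Trbc1, a T cell receptor constant segment, was at 2.61, 1.84 and 2.07 CPM at day 14, against 0.0859, 0.579 and 0.103 CPM at day 1 (2.97 ± 0.64, adjusted p = 0.00187), and Icos, a T cell co-stimulator, was at 1.26, 1.22 and 0.829 CPM at day 14, against 0.0859, 0.0526 and 0.259 CPM at day 1 (2.94 ± 0.65, adjusted p = 0.00227). All 3 were higher in each day 14 library. The count was 6 without replicate 1 of day 14, 7 with a replicate block on the 6 libraries and 5 with a 2-fold minimum.

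Vascular genes were lower at day 14. Endothelial markers fell in 22 of 23 tested members and rose in none, with a median of -2.58. Selp, P-selectin, which lets leukocytes roll on activated endothelium, was at 1.07, 0.842 and 0.898 CPM at day 14, against 73.2, 19.9 and 28.9 CPM at day 1 (-5.43 ± 0.67, adjusted p = 5.98e-05). Flt1, a receptor for vascular endothelial growth factor, was at 15.4, 12.4 and 10.9 CPM at day 14, against 98.2, 59.5 and 71.3 CPM at day 1 (-2.57 ± 0.32, adjusted p = 6.66e-05), and Cldn5, a tight junction protein of vessels, was at 12, 8.52 and 5.7 CPM at day 14, against 114, 26.1 and 42 CPM at day 1 (-2.79 ± 0.44, adjusted p = 0.000263). Mean log2 CPM of the list was 3.31, 3.10 and 2.88 at day 14, against 6.40, 4.57 and 5.26 at day 1, where replicate 1 was the highest. Pdpn, a lymphatic marker also made by wound keratinocytes and fibroblasts, was at 9.55, 13.6 and 15.4 CPM at day 14, against 105, 138 and 68.6 CPM at day 1 (-3.01 ± 0.48, adjusted p = 0.000265).

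Muscle and fat genes moved with the day as well. Skeletal muscle genes fell in 23 of 28 tested members and rose in none (median -3.03). Myh7, the slow myosin heavy chain (chromosome 14, 54970684 to 54994626), was at 0, 0.0624 and 0.276 CPM at day 14, against 33.3, 251 and 311 CPM at day 1 (-10.67 ± 1.87, adjusted p = 0.000514), and Myl3, a slow myosin light chain, was at 0.0395, 0.156 and 0.311 CPM at day 14, against 55.8, 115 and 129 CPM at day 1 (-9.13 ± 1.51, adjusted p = 0.000361). Trim63, a ubiquitin ligase of muscle atrophy, was at 45.8, 28.7 and 17.6 CPM at day 14, against 389, 7283 and 2232 CPM at day 1 (-6.75 ± 1.23, adjusted p = 0.000652). Replicate 1 of day 1 was the lowest of the day 1 libraries for Myh7. Igfn1, a muscle protein of the Z-disc, was at 0.276, 0.312 and 0.173 CPM at day 14, against 135, 2301 and 919 CPM at day 1 (-12.07 ± 2.26, adjusted p = 0.000771), and Actn3, the fast-fibre alpha-actinin, was at 316, 300.5 and 311 CPM at day 14, against 4138, 9749 and 10761 CPM at day 1 (-4.73 ± 0.85, adjusted p = 0.000593). White adipocyte genes fell in 8 of 20 tested members and 1 rose, with 13 lower on the 9 hydrogel libraries and 16 lower under limma-voom. Pnpla2, the first lipase of fat breakdown, was at 141, 110.0 and 91.5 CPM at day 14, against 653, 1666 and 1499 CPM at day 1 (-3.48 ± 0.47, adjusted p = 0.000104). The 20 adipocyte genes took 0.565%, 0.426% and 0.32% of counts at day 14, against 0.859%, 0.616% and 1.04% at day 1.

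Energy genes that muscle also expresses were lower too. Nuclear-encoded respiratory chain genes fell in 21 of 25 tested members, with a median of -0.83 on the log2 scale. The count was 6 without the day 7 libraries, 3 with a replicate block on the 6 libraries and 1 with a 2-fold minimum. Glycolysis and hypoxia response genes fell in 16 of 26 members (median -1.76). Ldha, lactate dehydrogenase A, was at 1274, 984 and 828 CPM at day 14, against 2928, 3286 and 4553 CPM at day 1 (-1.80 ± 0.27, adjusted p = 0.000199), and Bnip3, a hypoxia-induced mitophagy receptor, was at 29.6, 22 and 13.8 CPM at day 14, against 96, 544 and 266 CPM at day 1 (-3.79 ± 0.54, adjusted p = 0.000148). The summed share of the muscle genes was lower in the same libraries, as given above, and its part in these 2 lists was not tested.

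Antioxidant genes were mostly lower at day 14, in hydrogel wounds and in control wounds. Of 27 tested genes of the NRF2, glutathione and peroxide defence list, 18 fell and 2 rose (median -1.07), and 7 fell with a 2-fold minimum. In control wounds 14 of the 27 fell and 1 rose (median -0.80), and the difference between arms passed for 1 gene with a higher and 2 genes with a lower change in hydrogel wounds. Srxn1, sulfiredoxin, an NRF2 target that repairs peroxiredoxins, was at 26.4, 23.8 and 20.2 CPM at day 14, against 124, 262 and 139 CPM at day 1 (-2.90 ± 0.34, adjusted p = 4.25e-05). Hmox1, haem oxygenase 1, was at 17.1, 13.8 and 11.4 CPM at day 14, against 206, 250.4 and 89.5 CPM at day 1 (-3.69 ± 0.53, adjusted p = 0.000159), and Gpx3, the secreted glutathione peroxidase, was at 149.6, 115 and 89.5 CPM at day 14, against 1809, 1291 and 1168 CPM at day 1 (-3.59 ± 0.56, adjusted p = 0.000256). The members that rose were Gclc, a subunit of the enzyme that starts glutathione synthesis (1.29 ± 0.28, adjusted p = 0.00204), and Prdx2 (0.65 ± 0.24, adjusted p = 0.0331).

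Matrix genes were split. Of 29 genes for fibrillar collagens and matrix assembly, 6 rose and 6 fell (median 0.28), a share near that of all genes. Col1a1, the main chain of type I collagen, was at 1084, 883 and 731 CPM at day 14, against 208, 209 and 267 CPM at day 1 (1.98 ± 0.38, adjusted p = 0.000938). Lox, which cross-links collagen, was at 15.4, 12.9 and 12.4 CPM at day 14, against 90.8, 58.4 and 68 CPM at day 1 (-2.41 ± 0.54, adjusted p = 0.00253), and P4ha2, a subunit of the collagen prolyl hydroxylase, was at 22.9, 15 and 13.9 CPM at day 14, against 40.1, 51.8 and 53.5 CPM at day 1 (-1.49 ± 0.29, adjusted p = 0.00101). The number that rose was unstable, at 3 without replicate 2 of day 1, 2 without replicate 1 of day 14 or without the day 7 libraries, 1 with a 2-fold minimum, 10 on the 6 libraries with a replicate block or without replicate 1 of day 1, 11 under limma-voom and 12 on the 9 hydrogel libraries. Of 19 metalloproteinase and inhibitor genes, 9 fell and 3 rose, and 5 fell with a 2-fold minimum. Timp1, an inhibitor induced by injury, was at 8.25, 6.24 and 5.11 CPM at day 14, against 142, 109 and 57.2 CPM at day 1 (-3.97 ± 0.54, adjusted p = 0.000107), and Mmp16, a membrane-type enzyme, was at 2.09, 1.81 and 1.35 CPM at day 14, against 0, 0.0526 and 0.155 CPM at day 1 (4.37 ± 0.68, adjusted p = 0.000247). Lrrc15, a stromal membrane protein, was at 102, 82.7 and 67.9 CPM at day 14, against 0.172, 0.105 and 0.362 CPM at day 1 (8.55 ± 0.41, adjusted p = 2.04e-08). Acta2, smooth muscle actin and the marker of myofibroblasts, did not pass (-0.38 ± 0.39, adjusted p = 0.439), with 156, 139 and 133 CPM at day 14, against 319, 70 and 169.8 CPM at day 1.

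Cytosolic ribosomal protein genes gave a list with no call, 0 of 25 in either direction at a median of 0.34 in the edgeR test, with 2 at an unadjusted p below 0.05. Without replicate 1 of day 1, 14 of the 25 were higher at day 14. Mean log2 CPM over the list was 9.93, 9.96 and 9.98 at day 14, against 10.16, 9.28 and 9.30 at day 1, where replicate 1 was the highest. DESeq2 called 2 of them higher, limma-voom with quality weights 23 (median 0.64), and the test on the compared libraries without replicate 1 of day 1 called 24 (median 0.81), so the call depends on the setting.

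The hydrogel wounds at day 7 place these changes in time. Mean log2 CPM of the mitosis list was 1.57 to 3.23 at day 1, 4.14 to 4.29 at day 7 and 5.98 to 6.30 at day 14. The neutrophil list ran the other way, with 2.91 to 4.41 at day 1, 0.91 to 1.70 at day 7 and -0.82 to -0.27 at day 14. Hair shaft and sheath genes were at -1.93 to -1.44 at day 1, -0.44 to -0.36 at day 7 and 5.14 to 7.30 at day 14. Most of the difference in this mean lay after day 7, but the prior count narrows differences between levels near 0. Krt35 was at 1.08, 0.56 and 2.27 CPM at day 7, against 0, 0 and 0.0518 CPM at day 1. Summed CPM of the list were 225, 36.9 and 43 at day 1, 85.4, 86.2 and 82.8 at day 7 and 3408, 5250 and 6574 at day 14. Sebaceous genes had 3.21 to 5.33 at day 1 and 6.97 to 7.04 at day 7, and 6.51 to 6.87 at day 14 lay just under the day 7 range. Pigment genes were intermediate at day 7, with -0.89 to -0.60 at day 1, 2.90 to 3.06 at day 7 and 5.89 to 6.01 at day 14. Muscle genes were at 10.32 to 11.87 at day 1, 10.79 to 10.84 at day 7 and 7.58 to 8.45 at day 14. These are descriptions with no test.

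**Figure D3:**
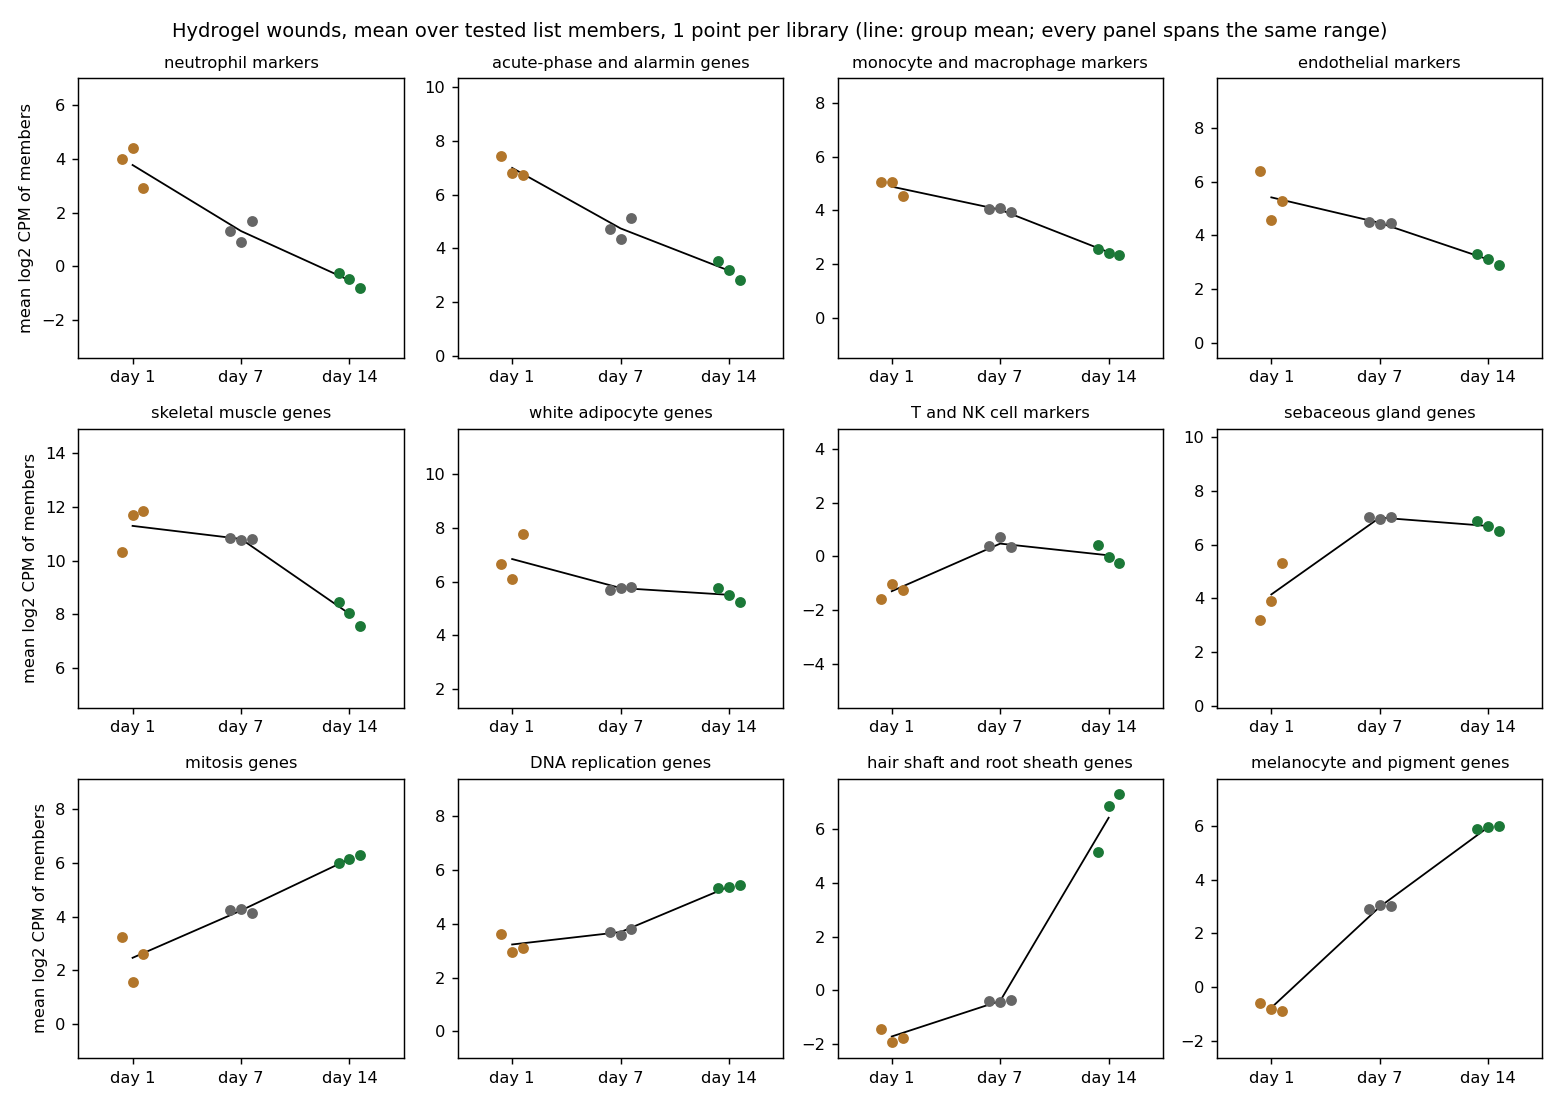
Mean log2 CPM over the tested members of 12 gene lists in hydrogel wounds at day 1, day 7 and day 14, 1 point per library and a line through the group means. Each panel spans the same number of log2 units. The hair shaft and root sheath panel steps up after day 7, and the neutrophil panel steps down at each day.

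The change in hydrogel wounds was then set against the change in control wounds between the same days, with no library shared between the arms. In control wounds 5699 genes (32.4%) passed. Of the 8415 genes called in hydrogel wounds, 6849 (81.4%) had the same sign in control wounds, and 3386 were called there with the same sign, which is 40.2% of the hydrogel calls and 59.4% of the control calls. Another 288 genes were called in both with opposite signs. The test of the difference itself called 1844 genes (10.5%), 470 with a higher and 1374 with a lower change in hydrogel wounds. That count was 408 without the day 7 libraries. Their replicates lay close together (biological coefficient of variation 11.1% in hydrogel and 4.69% in control wounds) and enter the spread that all groups share. The count also moved with single libraries, to 917 without replicate 3 and 1011 without replicate 2 of hydrogel day 14. It was 3005 without replicate 3 of control day 14 and 2842 without replicate 1 of control day 1.

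The genes with the smallest p in the test of the difference were lower in the hydrogel arm's change. Rian, a long noncoding RNA of the Dlk1-Dio3 imprinted region, was in hydrogel wounds at 18.4, 16.8 and 16.7 CPM at day 14, against 19.8, 12.2 and 17.3 CPM at day 1, and in control wounds at 119, 74.1 and 80.1 CPM at day 14, against 7.54, 9.1 and 6.46 CPM at day 1. Its difference between arms was -3.48 ± 0.30, adjusted p = 8.37e-05. Loxl3, a lysyl oxidase of matrix cross-linking, had a log2 change of -0.95 in hydrogel and 3.03 in control wounds (difference -3.98 ± 0.38, adjusted p = 0.000144). Col8a1, a short-chain collagen of vessels and wounds, had a log2 change of -1.57 in hydrogel and 3.76 in control wounds (difference -5.33 ± 0.52, adjusted p = 0.000144). Control wounds at day 14 held more of all 3 transcripts relative to their day 1 than hydrogel wounds did. Mefv, which encodes pyrin, an inflammasome sensor, had a log2 change of -4.16 in hydrogel and 3.48 in control wounds (difference -7.64 ± 0.78, adjusted p = 0.000157). Oas2, an interferon-induced enzyme, had a log2 change of -3.06 in hydrogel and 1.64 in control wounds (difference -4.70 ± 0.52, adjusted p = 0.000298).

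**Figure D4:**
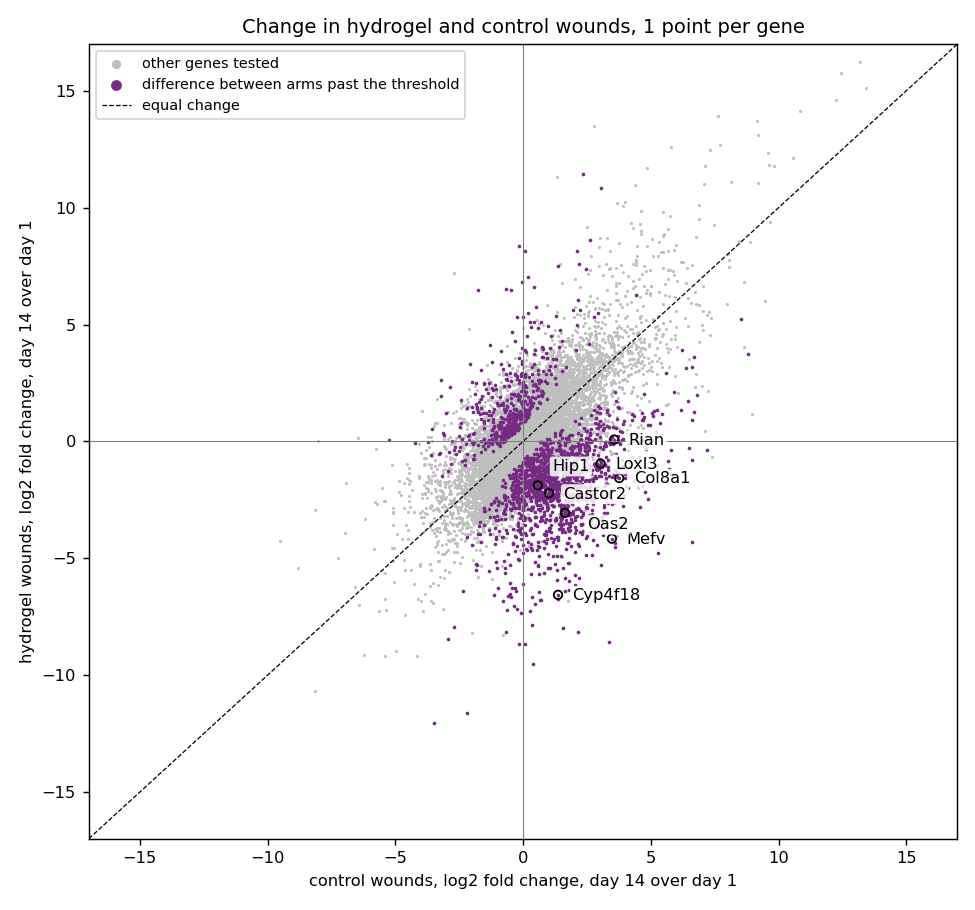
Log2 fold change of day 14 over day 1 in hydrogel wounds (vertical) and control wounds (horizontal), 1 point per tested gene. Purple marks the 1844 genes whose difference between arms passed the threshold, and the 8 genes with the smallest p are circled. All 8 lie below the dashed line of equal change.

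Members of the lists differed between arms in both directions. A higher change in hydrogel wounds, found for 470 of the 17592 genes, was called for 6 of 27 suprabasal and cornified envelope genes, 5 of 22 immediate early and KLF transcription factors, 4 of 23 T and NK cell markers and 3 of 19 hair shaft and sheath genes, with none lower in these 4 lists. Hair and pigment genes also rose in control wounds, in 10 of 19 hair shaft and sheath genes (median 4.96). There 16 of 22 hair follicle regulators (median 3.02) and 12 of 13 pigment genes (median 5.48) rose, and none of the 3 lists had a member that fell. The difference between arms passed for 1 follicle regulator, lower in hydrogel wounds, and for 1 pigment gene, higher there. Of the 29 fibrillar collagen and matrix genes, 17 had a lower change in hydrogel wounds and none a higher one, and control wounds called 21 of the 29 higher. Col1a1 had a log2 change of 1.98 in hydrogel and 6.82 in control wounds (difference -4.84 ± 0.55, adjusted p = 0.000314). In control wounds Col1a1 was at 12119, 6546 and 4003 CPM at day 14, against 99.2, 43.9 and 57.3 CPM at day 1. Of 23 monocyte and macrophage markers, 17 had a lower change in hydrogel wounds, with Fcgr1 at -5.21 in hydrogel and 1.78 in control wounds. Of 19 neutrophil markers, 14 had a lower change, and Cxcl2 among their chemokines had a log2 change of -8.16 in hydrogel and -0.69 in control wounds (difference -7.48 ± 1.06, adjusted p = 0.000991). In the difference between arms 0 of the 27 mitosis genes passed in edgeR, DESeq2 or limma-voom and 0 had an unadjusted p below 0.05, and in both arms all 27 rose. Control wounds were uneven, with a biological coefficient of variation of 52.7% at day 14 and 55.6% at day 1. In control wounds at day 14 Krt25 was at 1.57, 97 and 334 CPM and Tyr at 0.116, 25.1 and 25.8 CPM. Replicate 1 was the lowest of that group for both genes, and the highest for Csf3r, at 28, 13.4 and 6.05 CPM. Without that library the difference between arms was called for 1395 genes. Its part in the list counts of that difference was not tested.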

How the data were processed

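RNA from wound tissue had been made into mRNA libraries. The submitters' processing notes name Trim Galore 0.6.10, FastQC 0.11.9, HISAT2 2.2.1, SAMtools 1.9 and featureCounts 2.0.6, and the build mm10. Per the file headers, the authors deposited counts of read pairs over exons, summed by gene name (GENCODE M25, GRCm38) without use of strand, so antisense and sense RNA cannot be told apart. The filter behind the alignments that were counted is not given in the sources used here. The 32 mitochondrial symbols had no count in any library and were not analysed here. Counts were used as deposited, 12.4 M to 27.1 M per wound library.

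Groups came from titles. Low genes were removed by filterByExpr (minimum count 10, minimum total 15). The main test was the quasi-likelihood F test of edgeR 4.0.16 (R 4.3.3, TMM, robust) on all 18 wound libraries with 6 group means and 12 residual degrees of freedom, for day 14 minus day 1 in hydrogel wounds and for its difference from control wounds. P-values were adjusted by Benjamini-Hochberg over all 17592 genes, with a threshold of 0.05. Standard errors come from the F statistic. CPM use TMM sizes, and log2 CPM a prior count of 2. A group with no count was given 3 counts for a lower bound on the fold. With 1 to 3 counts a ratio has an exact 95% interval. Bounds and intervals cover counting error only.

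Members, lists (54, with 973 of 1023 symbols tested) and rules were chosen with earlier results of these data known. Named by rule were the 12 largest changes in each direction that reached 10 CPM on average in the higher group without overlap of libraries (predicted symbols left out), up to 4 members of a list by smallest p, and the 8 smallest p of the difference between arms that reached 5 CPM in some group. The text may stop early. Members that did not pass, that went against their list or that check the tissue, and genes said to be so, were named in addition after their values were seen. Lists are described by counts and medians, without a set test.

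The alternatives tried were size factors by RLE, no filter, at least 1 CPM in 6 libraries, a 2-fold minimum, DESeq2 1.42.0, voom of limma 3.58.1 with quality weights, fewer libraries in the model, a replicate block, and each library left out. The block on the 6 libraries alone, and those libraries without replicate 1 of day 1, were chosen after seeing the data, as was the use on list counts of settings other than RLE, DESeq2, the 6 libraries alone and single libraries left out. The tests were tried on simulated counts. Promoter windows are from RefSeq (GRCm38.p6). Cell line libraries and raw reads were not used here. Some list members are not reported here.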

Additional observations from a re-analysis of the deposited data

Results flagged for a closer look

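The changes of 25 genes differed between hydrogel and control wounds by the interaction test (edgeR, adjusted p below 0.05 for genes named by size of change or by this test, below 0.001 for other list members). Values are differences in log2 fold change, hydrogel minus control. All 25 were lower in the hydrogel arm's change. Among the largest increases, Krt73, Krt87, Krtap8-1 and Tgm6 had no count at day 1 in either arm. Their standard errors in this test were 18732 or more, so it could not flag them. The part of this in the shared direction of the 25 genes was not tested. The 8 with the smallest p were Rian at -3.48, Loxl3 at -3.98, Col8a1 at -5.33, Castor2 at -3.23, Mefv at -7.64, Cyp4f18 at -7.93, Hip1 at -2.46 and Oas2 at -4.70 (adjusted p 8.37e-05 to 0.000298). Castor2, a gene of the mTORC1 pathway, had a log2 change of -2.22 in hydrogel and 1.01 in control wounds. Hip1, an endocytic adaptor, had one of -1.88 in hydrogel and 0.57 in control wounds.

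Neutrophil and acute-phase genes that fell most in hydrogel wounds also differed. Retnlg differed by -9.40, Stfa2l1 by -9.92, Cstdc4 by -8.52, Mmp8 by -8.74 and Cxcl2 by -7.48. Saa3 differed by -11.92, with -8.56 in hydrogel and 3.35 in control wounds. Control wounds at day 14 had 925, 93.1 and 5.18 CPM, against 62.3, 13.1 and 24.6 CPM at day 1, so that replicate 3 of control day 14 lay under every control day 1 library. Saa2 differed by -5.50 and Saa1 by -5.24. Lcn2 fell alike in both arms, by -5.12 in hydrogel and -5.11 in control wounds (adjusted p of the difference 0.999). Of the 17 acute-phase and alarmin genes, 7 had a lower change in hydrogel wounds and none a higher one, and 7 fell in control wounds. The muscle gene Igfn1 differed by -8.59 (adjusted p = 0.0307). Its control levels were uneven, at 2.26, 32.8 and 1.83 CPM at day 14, against 2.72, 3.34 and 406 CPM at day 1. The control change of Igfn1 thus leaned on replicate 3 of control day 1. The values for Retnlg, Stfa2l1 and Cstdc4 depend on the prior count, since hydrogel wounds at day 14 held at most 2 counts of each.

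Other list members with a different change were Csf3r at -8.14, Fcgr1 at -6.99, Spp1 at -5.84, Lyve1 at -5.37, Stab1 at -4.87, Ncf4 at -5.01, Col1a1 at -4.84 and Pdpn at -4.65.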

How the results depend on the processing

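The count of genes that differed between day 14 and day 1 in hydrogel wounds was 8415. It was 3170 with a 2-fold minimum, and 5809 to 12441 under the other settings that kept all 6 libraries, the highest under limma-voom and the lowest without the day 7 libraries. Leaving out 1 library gave 6275 to 8742, and the compared libraries alone without replicate 1 of day 1 gave 11133. DESeq2 called 9163 genes, which held 8353 of the 8415 with the same sign. The count of genes whose change differed from control wounds was 1844 and moved more. It was 710 with a 2-fold minimum, 3005 with DESeq2, 4879 with limma-voom and 408 without the day 7 libraries, and leaving out 1 library gave 917 to 3005. Replicate numbers are shared by groups. Deviations of same-numbered day 14 and day 1 hydrogel libraries correlated at -0.04, -0.01 and -0.10, against -0.03 to 0.11 for differently numbered ones. No pairing by number was seen, but with 3 libraries a group this check cannot exclude it. With the replicate block the counts were 8498 for the change, 6568 on the 6 libraries alone and 1866 for the difference between arms. The 211 genes named for their change kept their direction under every alternative that gave them a value. Of these, 38 missed the threshold under at least 1 alternative, 34 under the 2-fold minimum, 8 with no filter and 8 without the day 7 libraries. The globin genes Hba-a1, Hbb-bs and Hbb-bt missed it both with no filter and without the day 7 libraries. Of 972 list counts (54 lists under each alternative) 128 moved by over 1.5 times, and the causes were not tested. With 3 libraries a group and few counts behind the lowest levels, a gene that did not pass is not shown to be equal between days.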
